A study of Mus musculus with 5 samples.

Results

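Endogenous small interfering RNAs (endo-siRNAs) whose reads were concentrated in the mouse egg were examined in 5 small-RNA libraries. Of 212905 endo-siRNA entries listed in any library, 18721 (8.79%) were egg-led and are the subject here. An entry is a name with a read number, such as mmur001272954. It was called egg-led when it had at least 100 reads over the 5 libraries, a name without the tag chrUn, and an egg level of at least 60% of the sum of 4 levels. A level is the reads scaled to the library's endo-siRNA total (RPM), and the 4 levels were those of primordial germ cells, spermatogonia, spermatozoa and the mean of zygote and oocyte. Egg-led entries were 49.6% of the 37712 entries that passed the read and name conditions. Of the others, 4985 were led by spermatogonia, 1621 by spermatozoa and 1388 by primordial germ cells in the same way, and 10997 had no leading value. The entries were thus chosen by their measured levels in these same libraries, and the differences between egg and male germ cells below are a description of that choice, with no test.

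Mouse oocytes make endo-siRNAs by cutting long double-stranded RNA with Dicer, of which they carry a short, highly active form. The double strands come from inverted repeats, from overlapping transcripts of opposite strands, from pairs of genes and their pseudogenes, and from retrotransposons. The products are loaded into AGO2, and loss of Dicer or of AGO2 function in oocytes disturbs meiosis and raises matching transcripts. Male germ cells are better known for piRNAs, which are made without Dicer. The fertilised egg starts with the small RNAs stored in the oocyte.

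The zygotes were collected 15 to 18 hours after fertilisation from superovulated C57BL/6 females aged 4 to 5 weeks mated with DBA/6J males, as the strain is spelled in the labels. The oocytes came from superovulated C57BL/6 females of the same age and are given as metaphase II in one label and as fully grown in another. The zygote library pooled 15416 zygotes and the oocyte library 15210 oocytes, freed of cumulus cells and zona. The male germ cells were CD-1: primordial germ cells from fetal male gonads at 13.5 days post coitum, enriched with anti-CD15 beads, spermatogonia from testes at 8.5 days after birth, enriched by letting somatic cells settle, and spermatozoa from the cauda epididymis. Strain, sex and cell type therefore cannot be told apart between the egg and the male libraries. Every group had 1 library, so no p-value or replicate error could be given, and intervals in brackets are 95% intervals for counting error only; reads without molecular identifiers are not independent molecules.

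The endo-siRNA tables held 30760735 reads in the zygote, 25968584 in the oocyte, 1216678 in primordial germ cells, 3427374 in spermatogonia and 1370190 in spermatozoa. These were 71.2% and 60.1% of the reads of all 4 deposited small-RNA classes in zygote and oocyte, and 4.58%, 13.0% and 6.28% in primordial germ cells, spermatogonia and spermatozoa. A count of 0 allows a level of up to 0.0975 RPM in the zygote and 0.116 RPM in the oocyte, against 2.47, 0.875 and 2.19 RPM in primordial germ cells, spermatogonia and spermatozoa (3 reads per library). Marker miRNAs of the labelled cells were summed as RPM of the miRNA reads. Those of pluripotent and primordial germ cells summed to 9047 RPM in the zygote and 4051 RPM in the oocyte, against 28352 RPM in primordial germ cells, 1328 RPM in spermatogonia and 55.9 RPM in spermatozoa. Those of later spermatogenesis summed to 5404 and 8192 RPM in zygote and oocyte, and to 3188 RPM in primordial germ cells, 911 RPM in spermatogonia and 226123 RPM in spermatozoa. Markers of stroma and muscle reached 20989 and 26554 RPM in zygote and oocyte, 9259 RPM in primordial germ cells, and 233042 and 230738 RPM in spermatogonia and spermatozoa. The granulosa and cumulus list, led by miR-21a-5p, reached 37042 RPM in the zygote and 54882 RPM in the oocyte, against 12876 RPM in primordial germ cells, 9994 RPM in spermatogonia and 18931 RPM in spermatozoa. Erythroid markers reached 111 and 141 RPM in zygote and oocyte, against 100, 1302 and 16371 RPM in primordial germ cells, spermatogonia and spermatozoa. Leukocyte markers reached 75.2 and 28.8 RPM in zygote and oocyte, against 537, 214 and 2762 RPM in primordial germ cells, spermatogonia and spermatozoa. All 19 marker miRNAs were found, and their part in the results below was not tested.

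Egg-led entries carried most of the endo-siRNA reads of both egg libraries. They held 22214327 reads in the zygote, 72.2% of its endo-siRNA reads, and 18712727 in the oocyte, 72.1%. They held 75923 reads in primordial germ cells, 6.24% [6.20 to 6.28%], 346193 in spermatogonia, 10.1%, and 10785 in spermatozoa, 0.787% [0.772 to 0.802%]. As shares of all 4 small-RNA classes these were 51.4% in the zygote and 43.3% in the oocyte, against 0.286% in primordial germ cells, 1.31% in spermatogonia and 0.0494% in spermatozoa. The order zygote, oocyte, spermatogonia, primordial germ cells, spermatozoa was the same on both denominators. The shares of endo-siRNA reads in zygote and oocyte were nearly equal, and with other scalings given below the oocyte share was the higher. In whole-cell libraries, fewer cells of a type and less RNA per cell cannot be told apart.

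Single entries were mostly low. The median egg-led entry had 5.78 RPM in the zygote and 5.59 RPM in the oocyte, with interquartile ranges of 2.97 to 15.4 RPM in the zygote and 2.84 to 15.2 RPM in the oocyte. It had 0.255 RPM in primordial germ cells, 0.715 RPM in spermatogonia and 0 RPM in spermatozoa. Of the 18721 entries, 1 was listed with no reads in the zygote and 0 in the oocyte, against 6721 (35.9%) in primordial germ cells, 2481 (13.3%) in spermatogonia and 10421 (55.7%) in spermatozoa. Among the other entries past the read minimum, 19.5%, 5.18% and 23.2% had none in these 3 male libraries. The rule favours low male levels, so the higher shares are part of the choice. A median egg level lies above the level that a count of 0 allows in each male library. Spermatogonia were next after the egg for 11748 entries (62.8%), primordial germ cells for 3656 (19.5%) and spermatozoa for 1819 (9.72%). The remaining 1498 entries (8.002%) had reads in no male library. The spermatogonia library was deeper, with 3427374 endo-siRNA reads against 1216678 in primordial germ cells. The median level relative to the egg was 0.0994 in spermatogonia and 0.0472 in primordial germ cells. Over the 160 entries with at least 20000 reads in zygote and oocyte together it was 0.113 and 0.0865. How far depth set the order was not tested.

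The median egg share of the 4 levels was 83.0%, with an interquartile range of 73.7% to 89.6%, and 4493 entries (24.0%) had 90% or more. Just inside the threshold, mmur000665242 had an egg share of 60.0008%, with 49.9 RPM in the zygote and 49.6 RPM in the oocyte, against 14.1, 18.1 and 0.898 RPM in primordial germ cells, spermatogonia and spermatozoa. The next inside were mmur001169275 and mmur001348166. Nearest outside were mmur001379588, mmur001196372 and mmur000200051, with egg shares of 59.9957%, 59.9882% and 59.9874%.

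A small number of entries dominated. The entry with most reads held 24.0% of the egg-led reads of the zygote and 22.3% of those of the oocyte. The 10 largest held 39.5% in the zygote and 40.5% in the oocyte, the 100 largest 51.3% and 52.7%, and the 1000 largest 72.8% and 73.4%. In primordial germ cells the same 10 entries held 42.0% of the egg-led reads and in spermatogonia 24.7%, while in spermatozoa they held 9.70%. The reads of primordial germ cells were therefore at least as concentrated in the 10 largest entries as those of the egg, those of spermatogonia were less so, and those of spermatozoa least. The 1000 largest entries held 76.4% of the egg-led reads in primordial germ cells, 68.8% in spermatogonia and 35.4% in spermatozoa.

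**Figure D1:**
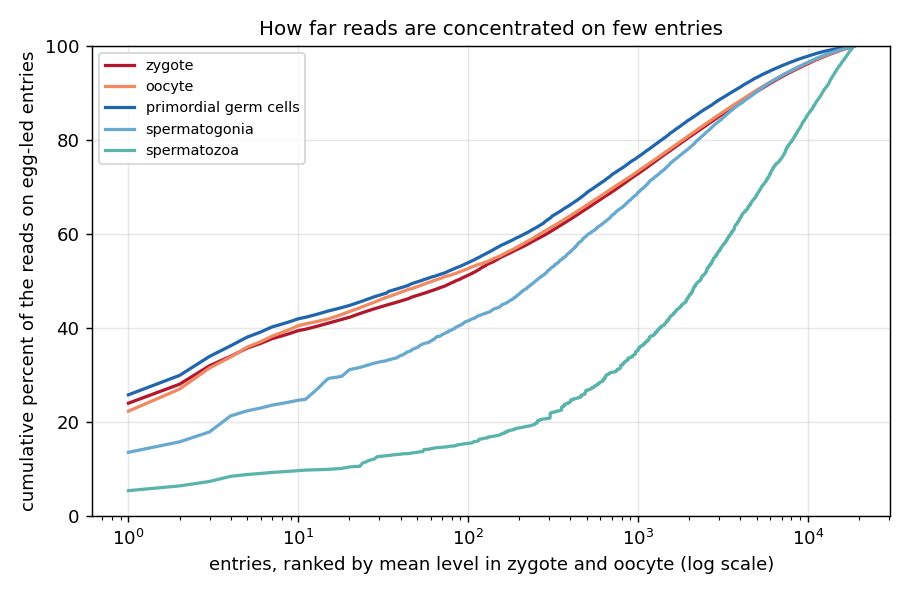
Share of egg-led reads (y axis, percent) held by the largest entries, ranked by zygote plus oocyte level (x axis, log scale), 1 line per library. The lines of zygote, oocyte and primordial germ cells run close together, with 39.5%, 40.5% and 42.0% of the reads in the 10 largest entries, and the line of spermatozoa lies lowest at 9.70%.

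The largest entry, mmur001272954, had 5340795 reads in the zygote and 4180754 in the oocyte, or 173624 and 160993 RPM. It alone was 17.4% of all endo-siRNA reads of the zygote and 16.1% of those of the oocyte. It had 16116 RPM in primordial germ cells, 13736 RPM in spermatogonia and 428 RPM in spermatozoa, and was also the highest egg-led entry in each of these. Its zygote level was 1.08-fold [1.077 to 1.080] the oocyte level. The next, mmur001273859, had 29137 RPM in the zygote and 33916 RPM in the oocyte, against 2575, 2244 and 79.6 RPM in primordial germ cells, spermatogonia and spermatozoa. Its close neighbour by number, mmur001273858, was almost equal at 28287 and 32233 RPM in zygote and oocyte. The fourth, mmur001201421, stood out by its spermatogonia level of 3449 RPM, beside 14670 RPM in the zygote and 16986 RPM in the oocyte, 1419 RPM in primordial germ cells and 86.3 RPM in spermatozoa.

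The other entries among the 10 largest lay between 4079 RPM and 12518 RPM in the zygote, and between 5217 RPM and 14963 RPM in the oocyte. Several had nearly equal levels. Entries mmur000643951 and mmur001273853 had 7210 and 7168 RPM in the zygote and 8389 and 8349 RPM in the oocyte, although their numbers lie far apart. Entries mmur001272964 and mmur001273848 had 4079 and 4081 RPM in the zygote and 5219 and 5217 RPM in the oocyte. Of the 10 largest, 9 were lower in the zygote than in the oocyte, but only 4 when scaled to all 4 classes and 0 with the deposited normalised column. The lowest was mmur001273856 at 0.754-fold [0.748 to 0.760], and none was 4-fold apart. In spermatozoa the highest entries after mmur001272954 were mmur001201421 and mmur001276900. Entry mmur001276900 had 222 RPM in the zygote and 222 RPM in the oocyte, against 16.0 RPM in primordial germ cells, 21.4 RPM in spermatogonia and 82.6 RPM in spermatozoa.

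**Figure D2:**
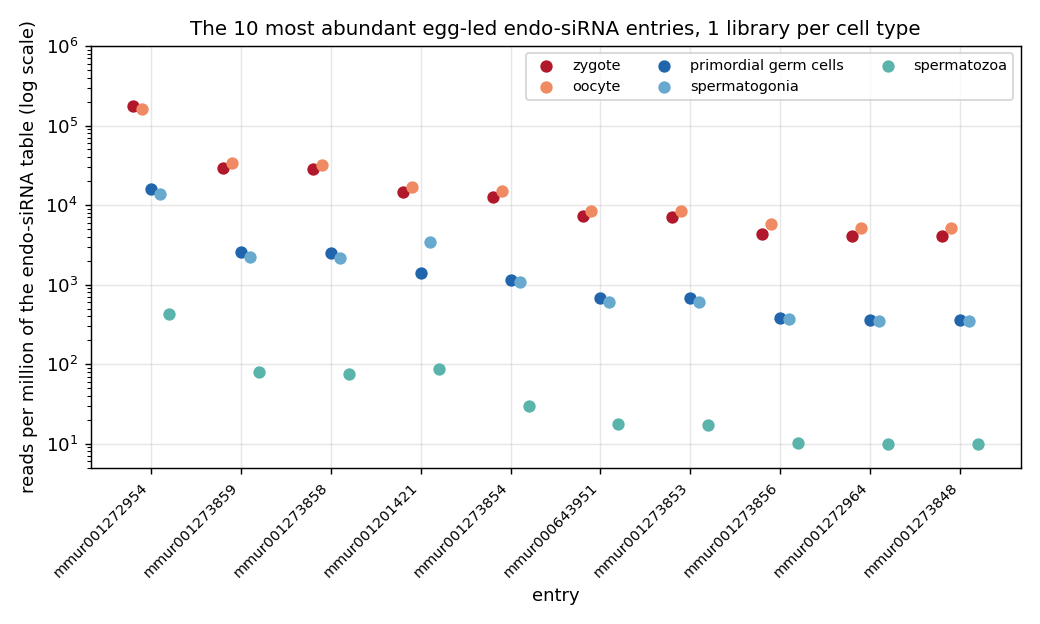
Level of the 10 largest egg-led entries (RPM, log scale) in each of the 5 libraries, 1 library per group and no error bars. Zygote and oocyte points lie close together for every entry, and primordial germ cells and spermatogonia lie below them, with mmur001201421 higher in spermatogonia (3449 RPM) than in primordial germ cells (1419 RPM).

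Such nearly equal values recurred among other entries, so entries cannot be counted as independent loci. Read numbers with a fraction made up 95.02% of the egg-led values in the zygote and 94.7% in the oocyte, against 91.4% and 90.3% among the 18991 other entries past the read minimum. Entry numbers fell into groups: with numbers at most 10 apart, the 18721 entries formed 6965 groups, the largest of 120 entries, and 3871 entries stood alone. An egg-led neighbour within 10 numbers was found for 79.3% of egg-led entries, while 68.0% of the other entries past the read minimum had a neighbour of their own kind. Runs of consecutive numbers with read values within 10% of each other in both egg libraries held 23.2% of the egg-led entries. Egg-led entries were found along the whole numbering, at 39.8% to 59.8% of the entries past the read minimum in blocks of 100000 numbers. The names give no chromosome, position, sequence or gene, so the source transcripts of these groups were not analysed here and no sequence could be printed.

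Of the 6965 groups, 71 had a summed egg level of at least 1000 RPM, and they held 1806 entries and 65.3% of the egg-led level. The largest, from mmur001272954 to mmur001272964, summed to 177707 RPM in the zygote and 166219 RPM in the oocyte over 3 entries. The next, from mmur001273847 to mmur001273866, had 11 entries, which summed to 85752 RPM in the zygote and 100728 RPM in the oocyte, 0.851-fold, or 1.01-fold when scaled to all 4 classes. These 2 groups held no entry 4-fold apart between zygote and oocyte. Across the 71 groups the zygote level was 0.555 to 3.67 times the oocyte level, with a median of 0.906 and an interquartile range of 0.801 to 1.13.

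The ratio of zygote to oocyte was not used to choose the entries, only their mean, and it sets the fertilised egg beside the unfertilised one. An entry can still pass through a high level in 1 of the pair alone, so the choice is not free of the ratio. The pair held at least 100 reads for 18602 of the 18721 entries. Their median log2 ratio of zygote over oocyte (0.5 reads added) was 0.01, with an interquartile range of -0.26 to 0.33, and 90% of them lay between -0.77 and 1.08. Within 2-fold were 16969 entries (91.2%), as were 91.6% of the other entries past the read minimum. At least 4-fold higher in the zygote were 158 egg-led entries (0.849%), beside 0.732% of all 33179 endo-siRNA entries with the same reads over the pair. At least 4-fold lower were 144 (0.774%), beside 0.615% of all entries. Both shares were near that of all entries, of which egg-led entries made up 56.1%. In both directions together 1.62% of egg-led entries and 0.976% of the other entries past the read minimum were 4-fold apart, beside 1.35% of all entries. With the oocyte alone as the egg value, 72 entries were higher and 159 lower. With the zygote alone, 177 were higher and 91 lower. The counts of 158 and 144 thus partly follow from the choice by the mean.

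The 2 sides differed in how many reads they held. The 158 entries that were higher in the zygote formed 83 groups of neighbours, 57 of them single entries, and held 1.55% of the egg-led reads of the zygote and 0.312% of those of the oocyte. The 144 entries that were lower formed 84 groups, and held 0.0426% of the egg-led reads of the zygote and 0.253% of those of the oocyte. Among the higher entries 36 had 1000 or more reads over the pair and 11 had 10000 or more, while among the lower entries 7 and 0 did. The 11 entries were 2.65% of the 415 egg-led entries with such depth, and none of the 167 other entries past the read minimum with such depth was 4-fold apart. The numbers of higher and lower entries changed with the egg value used for the choice, as given above. They were not counted again at this depth, so how far the choice made this difference was not tested.

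**Figure D3:**
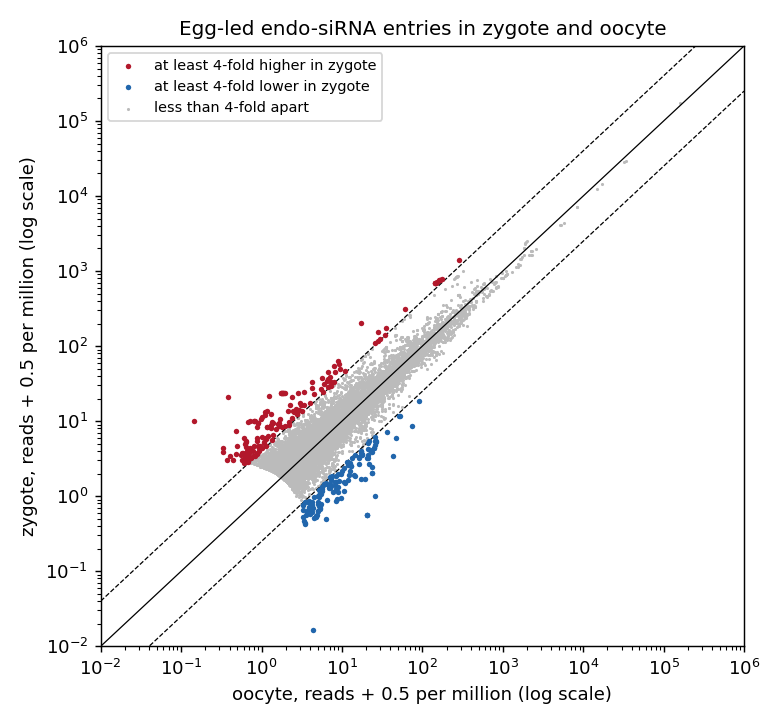
Level in the zygote (y axis) against level in the oocyte (x axis), both as RPM with 0.5 reads added and on log scales, 1 point per egg-led entry tested, with a solid line at equal levels and dashed lines at 4-fold. Most points lie along the solid line, 158 (red) lie at least 4-fold above it and 144 (blue) at least 4-fold below it, and the red points reach higher levels than the blue ones.

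The deepest of these was mmur001236989, with 43508 reads in the zygote and 7461 in the oocyte, or 1414 and 287 RPM, 4.92-fold [4.803 to 5.046] higher in the zygote. It had 141 reads in primordial germ cells, 363 in spermatogonia and 7 in spermatozoa. Of the 11 entries with 10000 or more reads that were higher in the zygote, 9 lay in 1 group, mmur000220546 to mmur000220601. This group had 52 egg-led entries, which summed to 14646 RPM in the zygote and 3994 RPM in the oocyte, 3.67-fold, the highest ratio among the 71 large groups. All 52 were higher in the zygote, 49 at least 2-fold and 14 at least 4-fold, and reads ran from 102 to 26734 in the zygote and from 21.6 to 7202 in the oocyte. The largest of the 14, mmur000220592, had 24111 reads in the zygote and 4518 in the oocyte, 4.50-fold [4.36 to 4.65]. The 9 deep entries had 21005 to 24111 zygote reads each, and neighbours so alike may share reads, so their count is not a count of sources.

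The 5 highest ratios of zygote over oocyte were found in entries of few reads. Entry mmur001454203 had 310 reads in the zygote and 3.25 in the oocyte, 80.5-fold [29.6 to 425], and mmur000201777 had 642 and 9.40 reads in zygote and oocyte, 57.6-fold [31.5 to 132]. Entries mmur001325977, mmur000774820 and mmur000458161 followed at 18.0-fold, 16.0-fold and 14.8-fold. In each of these 5 the oocyte level lay below that of a male library, so they were egg-led through the zygote. For mmur001454203 the oocyte had 0.125 RPM, against 1.17 RPM in spermatogonia. For mmur001325977 it had 1.21 RPM, against 1.64 RPM in primordial germ cells. These male values rest on 4 and 2 reads. On the other side, mmur000060516 had 0 reads in the zygote and 114 in the oocyte. That is 45.0-fold lower when the zygote is set to 3 reads, and the lower limit of its interval is 36.0-fold. Entry mmur000060516 had no reads in any male library either. Entries mmur000829418, mmur000198009 and mmur000695899 each had 16.7 reads in the zygote, and 533, 532 and 532 in the oocyte, 37.8-fold lower [22.9 to 64.1], and may be copies of 1 source. Entry mmur000995954 had 30.5 reads in the zygote and 672 in the oocyte, 26.1-fold lower. The entry with most reads among those lower in the zygote, mmur001409457, had 573 reads in the zygote and 2352 in the oocyte, 4.86-fold lower [4.44 to 5.34].

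Entries past 4-fold on the lower side also lay in large groups whose sum was lower by less, or was higher. Among the 12 groups with the highest egg level, 30 entries were so, 24 of them in 3 groups. Of the rest, 5 lay in mmur001017271 to mmur001017287, whose summed zygote level was 1.06 times that of the oocyte. The last 1 lay in mmur000336910 to mmur000337075, at 1.09 times. Groups mmur001175229 to mmur001175314, mmur000997731 to mmur000997838 and mmur001100606 to mmur001100639 had 8, 9 and 7 such entries, among 61, 83 and 33. Their summed levels in the zygote were 0.783, 0.894 and 0.727 times those in the oocyte, and 0.928, 1.06 and 0.862 times when scaled to all 4 classes. Neighbouring entries of 1 group thus differed in ratio, down to a log2 ratio of -3.64 in the second of these groups.

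The reads of egg-led entries in primordial germ cells, although chosen to be low, followed those of the zygote. They were compared as deposited read numbers, in percent of the zygote's reads of the same entry, over the 160 entries with at least 20000 reads over zygote and oocyte. The median was 0.340%, the lowest value 0.216% and the highest 0.864%, and from the 5th to the 95th percentile the percentage ran from 0.272% to 0.413%, a 1.52-fold range. Entry mmur001272954 had 19608 reads in primordial germ cells, 0.367% [0.362 to 0.372%] of its zygote reads, and mmur001273859 had 3133, 0.350% [0.337 to 0.362%]. The lowest was mmur001284909, and the highest mmur001434235, with 264 reads in primordial germ cells and 30541 in the zygote. The rule used these values and caps the percentage from above, so they are given as a description. Among the 55 other entries past the read minimum with that depth, the median was 0.892%. Their 5th to 95th percentile ran from 0.406% to 14.3%, a 35.3-fold range. The narrow range thus belongs to the chosen entries. With lower depth the range widened: over the 2438 egg-led entries with at least 1000 zygote reads the median was 0.323% and the 5th to 95th percentile ran from 0.135% to 0.672%, with 30 entries at 0 and 27 at 1% or more.

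Set against the oocyte, the same reads of primordial germ cells spread more. Their median was 0.403% of the oocyte's reads, and the 5th to 95th percentile ran from 0.283% to 1.49%, a 5.25-fold range. The interquartile range was 0.334% to 0.509%, beside 0.307% to 0.362% of the zygote's reads. Much of the wider range thus lay at the upper end. Entries that differ between zygote and oocyte separate the 2 percentages. Among the 160 entries these include 9 alike entries of the group mmur000220546 to mmur000220601, which may share reads. The 95th percentile against the oocyte may therefore rest on few sources. Entry mmur001236989 had 0.325% of its zygote reads in primordial germ cells, but 1.89% of its oocyte reads, and mmur000220592 had 0.269% of its zygote reads but 1.43% of its oocyte reads. Against the zygote mmur001236989 lay near the median of 0.340% and mmur000220592 just under the 5th percentile of 0.272%. Against the oocyte mmur001236989 lay above the 95th percentile of 1.49% and mmur000220592 just below it.

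**Figure D4:**
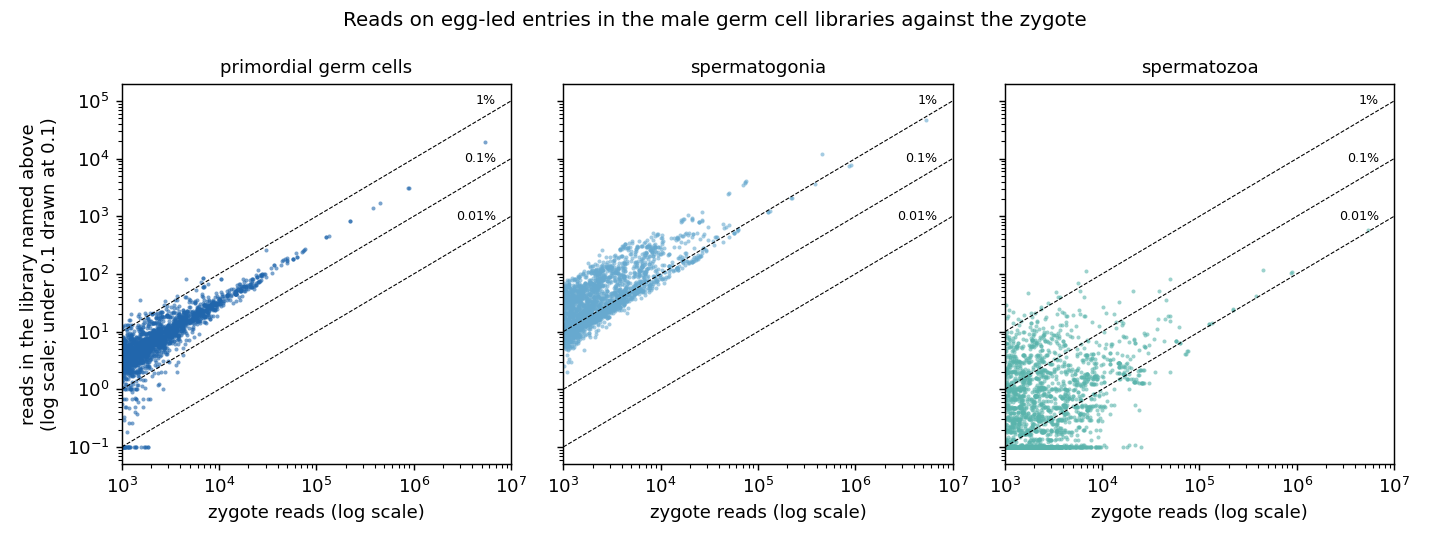
Reads in primordial germ cells, spermatogonia and spermatozoa (y axis, log scale, values under 0.1 drawn at 0.1) against zygote reads (x axis, log scale) for the 2438 egg-led entries with at least 1000 zygote reads, 1 panel per library and 1 point per entry, with dashed lines at 1%, 0.1% and 0.01% of zygote reads. Points of primordial germ cells form a narrow band between the 0.1% and 1% lines that narrows with depth, those of spermatogonia have a sharp lower edge below the 1% line with many points above it, and those of spermatozoa scatter widely.

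Egg-led entries with at least 1000 reads over the 5 libraries were also summed in bins of their ratio of zygote over oocyte. Where the log2 ratio lay within 0.5 of 0 (3336 entries), primordial germ cells had 0.359% of the zygote reads and 0.409% of the oocyte reads. From 1 to 2 (168 entries) they had 0.273% of the zygote reads and 0.904% of the oocyte reads. At 2 or more (36 entries) they had 0.272% of the zygote reads and 1.55% of the oocyte reads. This last bin had 307740 zygote reads. Much of them lay on mmur001236989, with 43508, and on 9 alike entries of the group mmur000220546 to mmur000220601, with 21005 to 24111 each. It is thus not a value over 36 separate sources. At -2 to -1 (37 entries) they had 0.490% of the zygote reads and 0.249% of the oocyte reads. The percentage of zygote reads thus ran from 0.272% to 0.490% across the bins, and that of oocyte reads from 0.249% to 1.55%. The bin below -2 held 7 entries and 8.49 reads in primordial germ cells and is not read. Across the 160 deepest entries the rank correlation of reads in primordial germ cells was 0.918 with the zygote and 0.678 with the oocyte, a description over entries that share libraries and partly share reads.

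**Figure D5:**
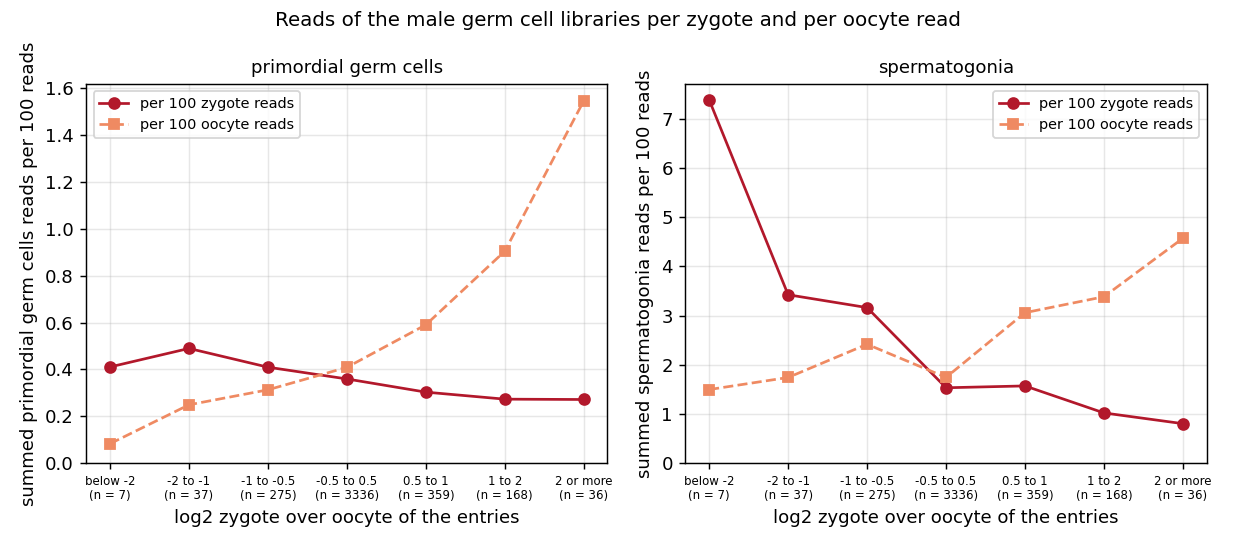
Summed reads of primordial germ cells (left) and spermatogonia (right) per 100 zygote reads (circles) and per 100 oocyte reads (squares), on linear y axes, in bins of the log2 ratio of zygote over oocyte (x axis), for egg-led entries with at least 1000 reads over the 5 libraries. In primordial germ cells the circles stay between 0.272 and 0.490 while the squares climb to 1.55, and in spermatogonia neither stays level.

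Spermatogonia showed a lower edge with entries above it. Over the 160 deepest entries their reads were 1.15% of the zygote reads at the median, with a lowest value of 0.723% (mmur001483168), a 5th percentile of 0.775% and a 95th of 5.01%. In 86 of the 160 entries the percentage was under 1.2%, in 43 from 1.2% to 3%, and in 31 at least 3%; these limits were set after the values were seen. Entry mmur001272954 had 0.882%, mmur001273859 0.858% and mmur001236989 0.835% of their zygote reads in spermatogonia. At the upper end, mmur001096279 had 5.46%, and the 5 entries from mmur000681037 to mmur000681041 together had 5.20%, with 3409 RPM in spermatogonia beside 7301 RPM in the zygote and 6128 RPM in the oocyte. In primordial germ cells the median percentage was 0.316%, 0.344% and 0.351% in the same 3 classes. The rule limits the male levels together, so entries high in both male libraries could be left out. The median egg share was already down to 68.8% in the class of at least 3%. These medians therefore cannot show whether the 2 male libraries vary apart. Against the oocyte the spermatogonia percentage ran from 0.806% to 6.11% between the same percentiles. In the bins of the zygote to oocyte ratio, spermatogonia had 3.42% of the zygote reads and 1.74% of the oocyte reads at -2 to -1, and 0.803% of the zygote reads and 4.57% of the oocyte reads at 2 or more, so neither percentage was level. The correlation of ranks over the 160 entries was 0.631 with the zygote and 0.721 with the oocyte.

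Spermatozoa had the fewest reads and no narrow range. Over the 160 entries their reads were 0.0131% of the zygote reads at the median, with a 5th to 95th percentile of 0.00337% to 0.0853%, a 25.3-fold range, and 2 entries had none. Among the 2438 egg-led entries with at least 1000 zygote reads, 682 (28.0%) had no reads in spermatozoa, 30 had none in primordial germ cells and 0 had none in spermatogonia. In sum, egg-led reads in primordial germ cells, spermatogonia and spermatozoa were 0.342%, 1.56% and 0.0486% of those in the zygote.

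The lowest values of the other small-RNA classes were taken for comparison. Among 158 piRNA entries with at least 5000 zygote reads, the lowest percentage of zygote reads was 0.207% in primordial germ cells and 0.798% in spermatogonia. Among 52 miRNAs with that depth, mmu-miR-1940 was lowest in primordial germ cells at 0.236%, with 12 reads there and 5092 in the zygote, and it was also lowest in spermatogonia, at 2.42%. The next, mmu-miR-3471, had 334282 reads in the zygote and 290685 in the oocyte, against 1180 in primordial germ cells, 9193 in spermatogonia and 56 in spermatozoa. Its 0.353% in primordial germ cells lay within the range of the egg-led endo-siRNAs. Among 638 endo-siRNA entries of all kinds with that depth, the lowest values were 0.145% in primordial germ cells and 0.619% in spermatogonia, and no entry had 0 reads in primordial germ cells. Among 8 snoRNAs the lowest percentage in primordial germ cells was 22.1%. These lowest entries do not stand for their classes. At that depth the median percentage in primordial germ cells was 7.46% for piRNAs, 395% for miRNAs and 96.0% for snoRNAs, against 0.358% for endo-siRNAs. Whether the reads of egg-led entries in primordial germ cells and spermatogonia came from those cells or from another library was not tested.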

How the data were processed

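Small RNAs of 18 to 32 nucleotides from total RNA were measured in 5 mouse libraries, 1 per group. Bowtie 0.12.7, DESeq and mm10 are named, without roles, per the submitters' processing notes, and the handling of reads with several matches is not given in the sources used here. The deposited read column holds expected counts, since many values have a fraction. The second deposited column, a TMM value per the file headers, is a signal equal to reads times 1 factor per library (1.37 in the zygote, 0.937 in the oocyte), and was used only as an alternative. Entries absent from a table were taken as 0. Levels are reads relative to the endo-siRNA total (RPM), and 6 snoRNA rows that name no single snoRNA were left out of class totals (0.551% to 4.59% of the snoRNA reads).

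Log2 ratios used 0.5 added reads for entries in which the pair held 100 or more reads, and a 4-fold difference was the limit for counting. Intervals of shares are Clopper-Pearson, and those of ratios come from a conditional binomial on the rounded reads. Named entries are the 10 with most egg reads, the 5 highest and 5 lowest ratios, the 3 highest in each male library and the 3 on each side of the threshold. Others were chosen after their values were seen. The entries, lists and limits were chosen with earlier results of these data known. Python 3.11.15, pandas 2.3.3 and scipy 1.17.1 were used, with edgeR 4.0.16 and DESeq2 1.42.0 for scaling factors only; ratio counting was tested on simulated data.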

Additional observations from a re-analysis of the deposited data

How the results depend on the processing

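The scaling decided how many entries were egg-led. Scaled to all 4 classes there were 29615 egg-led entries, with 90.0% of zygote and 90.6% of oocyte endo-siRNA reads, and 355 were 4-fold higher in the zygote. With the deposited normalised column there were 32246, with 94.0% and 94.3%, 1121 higher and 49 lower; these scalings moved every log2 ratio by 0.24 and 0.79, so that of the 12 largest groups 2 and 0 were lower in the zygote, against 6 as reported. Zygote and oocyte shares were 79.9% and 80.1% with TMM factors, 79.1% and 79.4% with DESeq2 size factors, and 75.9% in both with totals that leave out the 5 most abundant entries. A minimum of 20 reads gave 35972 entries with 73.7% and 73.5%, a minimum of 1 gave 71822 with 74.1% and 73.8%, and a minimum of 500 gave 7050 with 67.5% and 67.5%, 61 higher and 41 lower. An egg share of 50% gave 78.5% and 78.6%, and 80% gave 11187 entries with 52.4% and 51.8%. Runs counted once gave 73.1% and 72.9%. With zygote alone as the egg value the shares were 72.1% and 71.2% with 91 lower, and with oocyte alone 70.9% and 71.8% with 72 higher. Chosen after seeing the data, leaving out the 10 largest entries gave 43.7% and 42.9%, and a pair minimum of 1000 gave 36 higher and 7 lower. The 10 named entries with the 5 highest and 5 lowest ratios stayed 4-fold apart, in the same direction, under each of 6 alternatives. Their log2 ratios were 3.85 or more away from 0, and the scalings moved every log2 ratio by at most 0.79. Under the scalings their result was therefore fixed in advance, and other named entries were not put to this check.

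No paired analysis was possible because every group has 1 library and the labels give no replicate numbers that link libraries. Positions, overlap with genes and the list of known double-stranded RNA sources were not run, since the names hold no positions. Depth in primordial germ cells and spermatozoa limits single entries: 0 reads there allow 2.47 and 2.19 RPM.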

Other observations

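Some piRNA entries carry numbers within 10 of an egg-led endo-siRNA entry, and 165 of these had at least 100 reads. Only 1 of them (0.606%) was egg-led by the same rule, with a median egg share of 4.85%, beside 84 of all 6818 piRNA entries with that depth (1.23%). Near the other endo-siRNA entries past the read minimum, 3 of 291 (1.03%) were egg-led. This comparison was chosen after the data were seen, and what the numbering stands for is not given in the sources used here.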
